A study of Mus musculus with 4 samples.

Results

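The tumour necrosis factor (TNF) superfamily was described across the 4 RNA-seq libraries of a mouse T cell study. Its members were taken by gene symbol: every Tnfrsf and Tnfsf number with its letters, and Tnf, Lta, Ltb, Ltbr, Fas, Fasl, Cd27, Cd70, Cd40, Cd40lg and Eda2r. The rule took 43 of the 34745 genes in the deposited table, namely 25 receptors, 17 ligands and Tnfsf13os, an opposite-strand transcript that is neither. The rule itself reads symbols and no measured value, although the family was proposed with earlier results of these data known. Of these members, 35 passed the filter on low counts and were tested, 22 of them receptors and 13 ligands. The study cultured naive splenic CD4+ T cells of C57BL/6 mice for 3 days in medium that polarises them towards regulatory T (Treg) cells. One group was wild type (libraries 13 and 15), and the other carried the genotype Setd2-CD4 cre (libraries 22 and 24, called knockout-labelled here), with 2 libraries in each. The Setd2 enzyme trimethylates histone H3 at lysine 36, and Cre driven by CD4 acts in the T cell lineage, from the thymus on. Whether paired libraries stem from different mice or cultures is not stated in the labels, so each p-value reflects spread among 4 libraries that could be technical in part.

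TNF superfamily ligands are mostly trimeric membrane proteins, some of which are also shed, and their receptors pass the signal on by clustering. Receptors with a cytoplasmic death domain, such as TNFR1 and Fas, can start cell death, while others bind TRAF adaptors and lead to NF-kappaB and kinase signalling. On T cells, OX40 (Tnfrsf4), 4-1BB (Tnfrsf9), GITR (Tnfrsf18), CD27 and TNFR2 (Tnfrsf1b) act as costimulatory receptors, and Treg cells are known for high levels of several of them. Activated T cells also carry ligands, among them CD40 ligand, through which they help B cells, and RANKL (Tnfsf11).

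Library totals ran from 14599957 to 16030869 counts, and 3 counts corresponded to 0.184 to 0.201 CPM, which is a gene's count scaled to a common library size. The Setd2 row, which counts the whole gene, stood at 137 and 146 CPM in wild type, with 137 and 113 CPM in the knockout-labelled libraries (adjusted p = 0.436 in edgeR's quasi-likelihood test), so the labelled deletion was not seen there. The labels do not name the deleted exons, and the check is therefore weak. Markers of CD4 T cells summed to 2640 to 2887 CPM in all 4 libraries, and 0 of 5 passed edgeR's test (1 at an unadjusted p under 0.05). The 2 CD8 T cell markers, Cd8a and Cd8b1, summed to 125 and 183 CPM in wild type, then 182 and 78.4 CPM in the knockout-labelled libraries. Neither passed, and both overlapped between the groups. Foxp3, the defining Treg factor, read 242 and 247 CPM in wild type, then 31.9 and 75.8 CPM in the knockout-labelled libraries (adjusted p = 0.0233), and Il2ra fell as well. The other 2 Treg markers, Ctla4 and Ikzf2, lay higher in both knockout-labelled libraries without passing, at log2 0.41 (adjusted p = 0.0702) and 0.34 (adjusted p = 0.103). All 4 markers of T helper 17 cells rose, their sum being 113 and 111 CPM in wild type, then 391 and 382 CPM in the other group. Of 3 gamma-delta T cell markers 2 rose (Tcrg-C1 and Cd163l1), with sums over the 3 of 10.4 and 10.1 CPM, then 26.3 and 34.7 CPM. Trdc, which encodes the constant part of the delta chain, overlapped between the groups. It read 5.09 and 6.57 CPM, then 10.1 and 5.81 CPM (adjusted p = 0.374). Of 3 natural killer cell markers tested, 1 rose (Klre1) and 1 fell (Eomes), with sums of 25.1 and 24.9 CPM, then 18.7 and 13.4 CPM. Eomes made up most of the sum in wild type, at 22.7 and 21.7 CPM, then 10.2 and 7.53 CPM. Klre1 read 1.16 and 2.08 CPM, then 5.09 and 4.66 CPM. Ncr1, not tested, was at 0 in wild type, then at 0.535 and 0.191 CPM. Klrb1c and Klra8 overlapped between the groups. In bulk RNA, a change in the number of cells of a type and in RNA per cell cannot be told apart, and the part of these shifts in the values below was not tested. The gap between the 2 knockout-labelled libraries was wider than that between the 2 wild-type libraries: over the 35 tested members, the median absolute log2 gap was 0.389 and 0.0929.

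Promoter windows, the 250 bases before an annotated start in RefSeq (GRCm38.p6), were held for 32 members in 36 windows. They covered 4 of the 7 members that rose: Tnfrsf9, Tnfsf11, Tnfrsf12a and Tnfrsf13c. The motifs, searched on both strands, were that of NF-kappaB, TGANTCA (a site of AP-1) and TATAAA (the TATA box). The sequences below are those of Tnfrsf9, which has 2 annotated starts and was the most abundant member that rose, of Tnfsf11, and of Tnfrsf8, the other member with NF-kappaB and AP-1 motifs together. They read 5′ to 3′ towards the start on the gene's strand, with motif matches in capitals.
Tnfrsf9 first start, chr4:150919905-150920154, plus strand: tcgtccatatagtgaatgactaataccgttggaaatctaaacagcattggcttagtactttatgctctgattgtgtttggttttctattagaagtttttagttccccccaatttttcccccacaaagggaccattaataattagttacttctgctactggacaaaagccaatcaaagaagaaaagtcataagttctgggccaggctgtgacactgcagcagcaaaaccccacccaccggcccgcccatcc
Tnfrsf9 second start, chr4:150927749-150927998, plus strand: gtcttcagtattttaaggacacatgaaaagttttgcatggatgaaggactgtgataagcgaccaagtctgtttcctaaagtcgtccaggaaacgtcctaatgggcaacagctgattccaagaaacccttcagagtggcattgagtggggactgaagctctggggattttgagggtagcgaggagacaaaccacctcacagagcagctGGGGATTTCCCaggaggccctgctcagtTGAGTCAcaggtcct
Tnfrsf8, chr4:145315165-145315414, minus strand: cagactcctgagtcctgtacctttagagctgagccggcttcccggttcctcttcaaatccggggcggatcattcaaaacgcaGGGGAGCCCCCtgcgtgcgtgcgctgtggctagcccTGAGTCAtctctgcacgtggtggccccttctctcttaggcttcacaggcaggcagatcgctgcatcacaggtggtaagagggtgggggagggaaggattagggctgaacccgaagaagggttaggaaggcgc
Tnfsf11, chr14:78308044-78308293, minus strand: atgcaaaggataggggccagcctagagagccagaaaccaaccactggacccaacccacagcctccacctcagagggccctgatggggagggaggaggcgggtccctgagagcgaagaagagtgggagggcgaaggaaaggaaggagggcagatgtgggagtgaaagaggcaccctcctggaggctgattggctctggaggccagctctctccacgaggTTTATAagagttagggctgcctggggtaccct

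The second Tnfrsf9 window held overlapping NF-kappaB matches that begin 43 and 42 bases before the start and a TGANTCA match 15 bases before it, and the first window held none of the 3 motifs. In Tnfrsf8 the NF-kappaB matches begin 168 and 167 bases before the start and the TGANTCA match 132 bases before it. Tnfsf11 had a TATAAA match on the opposite strand 32 bases before its start. Both NF-kappaB and TGANTCA were found in 2 of 36 member windows (5.56%) and in 117 of 32851 windows of all genes (0.356%). The NF-kappaB motif, with or without the other, was in 4 member windows (11.1%, with 7.25% of all windows), TGANTCA in 6 (16.7%, with 6.75%) and TATAAA in 7 (19.4%, with 12.4%). These matches describe letters in the window and no factor's binding was measured.

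To compare levels between genes, CPM was divided by the length of the longest annotated transcript, in kb. On this scale Tnfrsf9, Tnfrsf18 and Tnfrsf4 were the most abundant members. The order depends on the length used. By mean deposited FPKM over the 4 libraries it was Tnfrsf9 (177), Tnfrsf4 (117), Lta (102) and Tnfrsf18 (91.0), with Tnfsf8 (63.9) above Ltb (42.0). The length behind FPKM exceeded the gene's whole span in 4 of 35 tested members. Among them were Tnfrsf18 (3853 bases, with a span of 2732) and Ltb (3482 bases, with a span of 1882). Their lower places in the FPKM order are therefore not reliable. Tnfrsf9 stood at 263 ± 15.1 (SD, n = 2) in wild type, with 455 ± 19.6 in the knockout-labelled libraries, Tnfrsf18 at 298 ± 40.7 and 291 ± 48.9, and Tnfrsf4 at 245 ± 5.02 and 188 ± 28.7 CPM per kb. Ordered by their mean over the 4 libraries, Tnfrsf9 and Tnfrsf18 had overlapping ranges, and Tnfrsf4 lay between them and Ltb without overlap on either side. The 5 most abundant receptors (Tnfrsf9, Tnfrsf18, Tnfrsf4, Tnfrsf1b and Fas) held 79.9% to 83.4% of the receptors' summed level in every library. The share of Tnfrsf9 was 23.5% in both wild-type libraries and 35.6% and 34.6% in the knockout-labelled ones. Among ligands, Ltb, Lta, Tnfsf8, Cd40lg and Tnfsf11 held 80.5% to 83.4% of the sum. A level of 1 CPM per kb or more in every library was reached by 17 receptors and 12 ligands, and 10 or more by 12 receptors and 7 ligands.

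**Figure D1:**
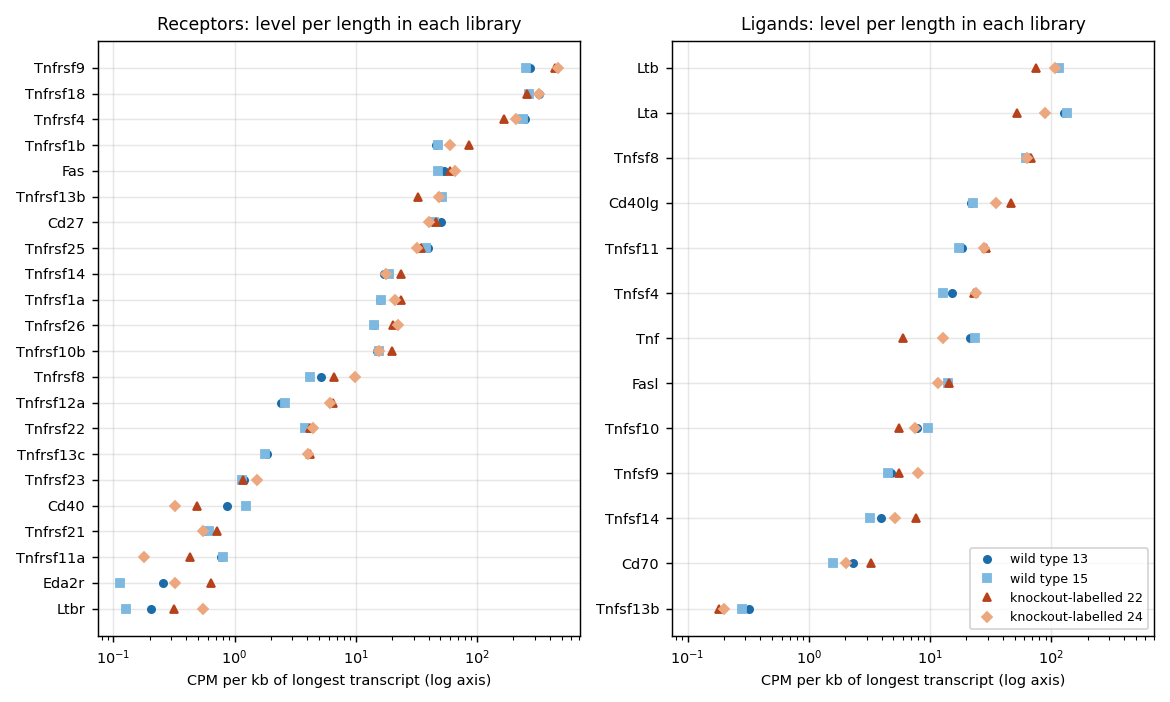
Level of each tested receptor (left) and ligand (right) in each library, in CPM per kb of the longest annotated transcript on a log axis, ordered by the mean over the 4 libraries. Tnfrsf9, Tnfrsf18 and Tnfrsf4 lie highest, and Eda2r, Ltbr and Tnfsf13b lie lowest.

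Between the groups, 7 members rose in the knockout-labelled libraries and 0 fell in edgeR's test. The 7 were the receptors Tnfrsf9, Tnfrsf13c, Tnfrsf12a and Tnfrsf26 and the ligands Tnfsf4, Tnfsf11 and Cd40lg, with fold changes from 1.5 (Tnfrsf26) to 2.51 (Tnfrsf12a). They made up 20.0% of the 35 tested, where 5.53% of all 13279 genes tested were called higher, 4.59% lower and 10.1% in either direction. By group, 4 of 22 receptors and 3 of 13 ligands rose. The members' median log2 fold change was 0.21, and that of all genes was near 0 (-0.0013), with members from -1.39 (Tnfrsf11a) to 1.36 (Ltbr). At an unadjusted p under 0.05 there were 12 higher and 5 lower members (34.3% and 14.3%), where 16.2% and 15.5% of all genes lay under it. The libraries of the groups did not overlap in 28 of 35 members (80.0%, 18 higher and 10 lower). Of all genes tested, 63.8% did not overlap, 31.1% higher and 32.7% lower. The calls rest on both wild-type libraries: without wild type 13 or without wild type 15, 0 of the 35 members passed the threshold, with adjusted p-values of the 7 genes from 0.0824 to 0.244 and from 0.147 to 0.312. In those fits the spread comes from the knockout-labelled pair alone, and calls dropped for all genes, to 1.08% higher and 0.572% lower without 13 and to 0.685% and 0.346% without 15. Without knockout-labelled 22 the members' counts were 9 higher and 3 lower, with 7.4% and 6.33% of all genes, and without 24 they were 11 and 6, with 16% and 14.9% of all genes.

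**Figure D2:**
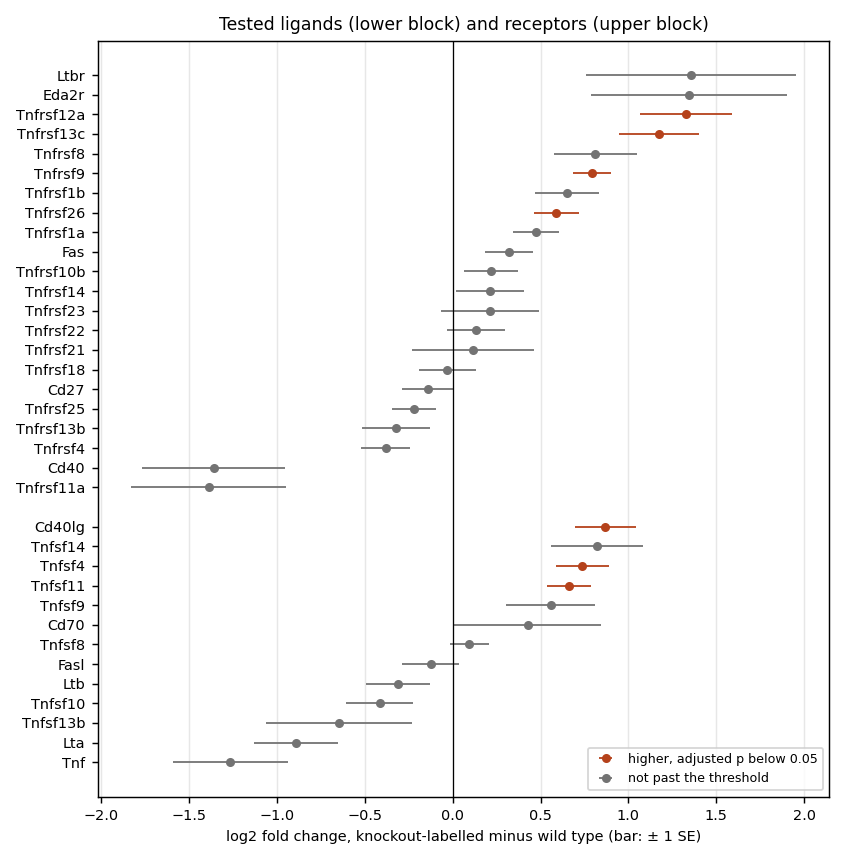
Log2 fold change (knockout-labelled minus wild type) of each tested receptor (upper block) and ligand (lower block), with bars of ± 1 standard error from edgeR. The 7 members past the threshold, in red, all lie to the right of 0.

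Among ligands, Cd40lg (CD40 ligand, X:57212143-57224042), which activated CD4 T cells use to help B cells, read 27.5 and 28.6 CPM in wild type, then 58.8 and 43.5 CPM in the knockout-labelled libraries. It rose 1.82-fold (log2 0.87, SE 0.17, adjusted p = 0.0327). Both knockout-labelled libraries lay above both wild-type ones, with 22 the higher. Tnfsf4 (OX40 ligand, 1:161395409-161418410) read 27.9 and 23.5 CPM in wild type, then 42.2 and 43.8 CPM in the knockout-labelled libraries, a 1.67-fold rise (log2 0.74, SE 0.15, adjusted p = 0.0328). Tnfsf11 (RANKL, 14:78277445-78308043), best known for driving osteoclast formation and lymph node development, read 41.1 and 39.1 CPM, then 64.7 and 62.1 CPM in the same order. Its rise was 1.58-fold (log2 0.66, SE 0.12, adjusted p = 0.0289), and the libraries of each group lay close together. Tnf, Lta, Ltb and the remaining ligands, which did not pass, are given below.

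Of the 8 costimulatory receptors, 1 rose and none fell, with 3 higher and 2 lower at an unadjusted p under 0.05. Tnfrsf9 (4-1BB, 4:150914562-150946102), an activation-induced receptor of T cells, read 579 and 534 CPM in wild type, then 933 and 992 CPM in the knockout-labelled libraries. This 1.73-fold difference (log2 0.79, SE 0.11) had an adjusted p of 0.0165. Every knockout-labelled library lay above every wild-type one. Camta1 overlaps it on the opposite strand over 28781 bases with 829 counts in total, beside 46886 for Tnfrsf9. Tnfrsf4 and Tnfrsf18, the other abundant costimulatory receptors, did not pass. Tnfrsf4 (OX40) read 271 and 263 CPM in wild type, then 183 and 227 CPM in the knockout-labelled libraries (log2 -0.38, adjusted p = 0.121). Tnfrsf18 (GITR) read 388 and 320 CPM, then 305 and 387 CPM (log2 -0.03, adjusted p = 0.912), with the groups overlapping. Cd27, the receptor of CD70, read 79.4 and 68.9 CPM, then 72.3 and 62.2 CPM (adjusted p = 0.543), and its 4377 counts in total stand beside 4945 of Vamp1, which overlaps it on the opposite strand. Whether strand was used in counting is not known, and the overlap is of gene spans, as exons were not compared. Whether reads of Vamp1 enter the Cd27 count was therefore not tested. Tnfrsf1b (TNFR2) read 175 and 181 CPM, then 329 and 230 CPM (log2 0.65, adjusted p = 0.0659), while Tnfrsf8 (CD30) read 17.8 and 14.4 CPM, then 22.8 and 33.7 CPM (log2 0.81, adjusted p = 0.0719). Neither of the latter overlapped between the groups, and both missed the threshold. Without knockout-labelled 22 and without 24, the log2 fold change was -0.22 and -0.55 for Tnfrsf4, 0.38 and 0.88 for Tnfrsf1b, and 1.08 and 0.50 for Tnfrsf8. Tnfrsf14 (HVEM), the receptor of LIGHT, differed by 0.21 on the log2 scale (adjusted p = 0.483).

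Among the receptors of B cell survival ligands, 1 of 2 tested rose. Tnfrsf13c (BAFF receptor, 15:82221744-82224339) read 3.68 and 3.56 CPM in wild type, then 8.30 and 8.04 CPM in the knockout-labelled libraries, a 2.26-fold rise (log2 1.17, SE 0.23, adjusted p = 0.0307). It is low, at 53 to 126 counts a library. All 8 B cell markers also had higher values in both knockout-labelled libraries than in either wild-type one, with a sum of 225 and 227 CPM in wild type, then 291 and 340 CPM in the knockout-labelled ones, and 18.6, 16, 44.6 and 31.8 CPM (wild type 13 and 15, knockout-labelled 22 and 24) without Ighm. One of 7 tested, Igkc, was called (2.94 and 2.08 CPM, then 8.03 and 6.83 CPM, adjusted p = 0.0276), and none was at 0 in every library. Their part in the Tnfrsf13c result was not tested. Tnfrsf13b (TACI), which binds both BAFF and APRIL, read 127 and 132 CPM, then 84.0 and 123 CPM (log2 -0.32, adjusted p = 0.297). Its log2 fold change was -0.06 without knockout-labelled 22 and -0.63 without 24. Tnfrsf17 (BCMA) had 0 counts in all 4 libraries.

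Of the death-domain receptors, 0 of 5 passed edgeR's test (1 at an unadjusted p under 0.05, and 0 with DESeq2), with 4 values above 0 and a median log2 fold change of 0.22. Fas read 86.2 and 77.2 CPM in wild type, then 97.3 and 107 CPM in the knockout-labelled libraries (log2 0.32, adjusted p = 0.162). Tnfrsf1a (TNFR1) read 34.0 and 35.2 CPM, then 50.7 and 45.5 CPM (log2 0.48, adjusted p = 0.0632), without overlap. Tnfrsf10b, the receptor of TRAIL, read 47.3 and 49.4 CPM, then 62.9 and 49.5 CPM (log2 0.22, adjusted p = 0.374). Tnfrsf25 (DR3) and Tnfrsf21 (DR6) had differences of -0.22 and 0.11 on the log2 scale (adjusted p = 0.269 and 0.848). Without knockout-labelled 22 and without 24, the log2 fold change was 0.41 and 0.55 for Tnfrsf1a and 0.05 and 0.38 for Tnfrsf10b.

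Among the other and decoy receptors, 2 of 7 tested rose. Tnfrsf12a (Fn14, the receptor of TWEAK, 17:23675447-23677449) read 2.39 and 2.55 CPM in wild type, then 6.36 and 6.06 CPM in the knockout-labelled libraries. Its rise was 2.51-fold (log2 1.33, SE 0.26, adjusted p = 0.0315), on 38 to 95 counts a library. Tnfrsf26 (7:143607685-143627845), one of a local group of decoy-type receptors, read 44.2 and 43.7 CPM, then 62.8 and 69.3 CPM, a 1.5-fold rise (log2 0.59, SE 0.13, adjusted p = 0.0385). It missed the threshold in 4 of the 9 other settings that kept all 4 libraries (adjusted p up to 0.0627). Its neighbours Tnfrsf22 and Tnfrsf23, with log2 values of 0.13 (adjusted p = 0.62) and 0.21 (adjusted p = 0.632), are uncertain because they share sequence: 27.7% of the 50-base stretches of Tnfrsf22 occur in other genes, Tnfrsf23 among 18 of them, and 21.8% of those of Tnfrsf23 occur in Tnfrsf22. Tnfrsf26 shares 0.

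**Figure D3:**
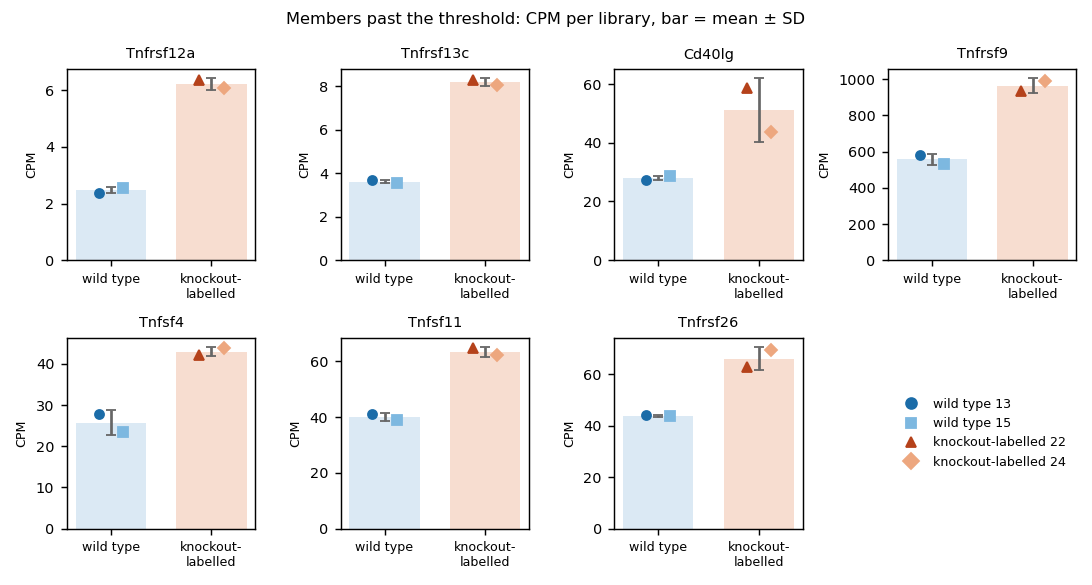
CPM of the 7 members past the threshold in each library, with bars for the group mean and error bars for 1 SD (n = 2). In every panel both knockout-labelled libraries lie above both wild-type libraries.

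The members with adjusted p from 0.05 to 0.1 numbered 8, in opposite directions: 4 higher (Tnfrsf1a, Tnfrsf1b, Tnfrsf8 and Tnfsf14) and 4 lower (Tnf, Lta, Cd40 and Tnfrsf11a). Tnf, which encodes TNF itself, read 35.4 and 38.9 CPM in wild type, then 9.84 and 21 CPM in the knockout-labelled libraries (log2 -1.27, SE 0.33, adjusted p = 0.0567). Lta, encoding lymphotoxin alpha, read 176 and 188 CPM, then 72.9 and 123 CPM (log2 -0.89, SE 0.24, adjusted p = 0.0609). Ltb, its membrane partner, read 160 and 163 CPM, then 107 and 153 CPM (log2 -0.31, adjusted p = 0.288), where 24 lies close to the wild-type values. In each of these genes both knockout-labelled libraries were below both wild-type ones, and 24 lay between 22 and wild type. Without knockout-labelled 22 and without 24, the log2 fold change was -0.81 and -1.92 for Tnf, -0.55 and -1.32 for Lta, and -0.06 and -0.59 for Ltb. Such fits take their spread from the wild-type pair alone, which lay closer together, so they cannot decide whether a gene passes. Without wild type 13 and without 15, the values were -1.33 and -1.20 for Tnf and -0.94 and -0.85 for Lta. With all 4 libraries, DESeq2 called Tnf and Lta lower, at adjusted p of 0.00234 and 0.00469, and Tnfrsf1b and Tnfrsf8 higher. It called 8.27% of all genes higher and 6.87% lower. Limma-voom called only Tnf of these 8, at adjusted p of 0.0440, with 5.26% of all genes called higher and 4.65% lower. With no filter on low counts, all 8 but Tnfrsf1a passed, where 6.69% of all genes were called higher and 5.77% lower. The 3 ligand genes form 1 locus of 10.913 kb on chromosome 17. Of the receptors of these ligands, Ltbr was at 0.268 to 1.15 CPM.

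**Figure D4:**
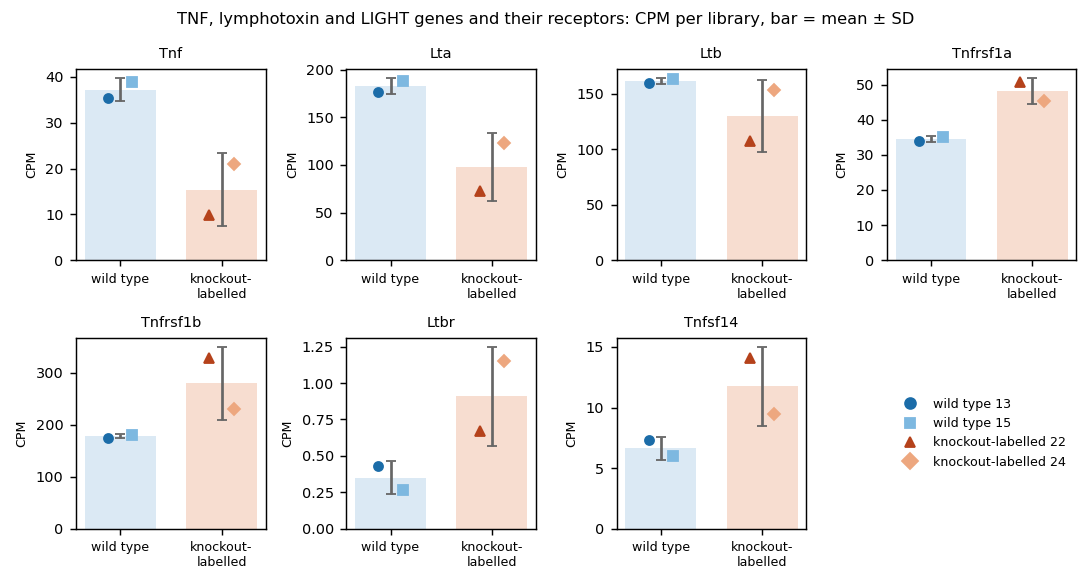
CPM per library for the TNF and lymphotoxin ligands (Tnf, Lta, Ltb, Tnfsf14, also called LIGHT) and their receptors (Tnfrsf1a, Tnfrsf1b, Ltbr), with bars for the group mean and error bars for 1 SD (n = 2). The first 3 lie below, and the other 4 above, the wild-type values in both knockout-labelled libraries.

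Cd40, the receptor of CD40 ligand, which antigen-presenting cells carry, read 2.57 and 3.69 CPM in wild type, then 1.47 and 0.957 CPM in the knockout-labelled libraries (log2 -1.36, SE 0.41, adjusted p = 0.0769). Tnfrsf11a, RANK, the receptor of RANKL, read 3.92 and 4.02 CPM, then 2.14 and 0.894 CPM (log2 -1.39, SE 0.44, adjusted p = 0.0884). Tnfsf14 read 7.29 and 5.97 CPM, then 14.1 and 9.45 CPM (log2 0.82, adjusted p = 0.0886). Without knockout-labelled 22 and without 24, the log2 fold change was -2.13 and -0.89 for Tnfrsf11a and 0.52 and 1.08 for Tnfsf14. Cd70, the CD27 ligand, read 1.96 and 1.34 CPM, then 2.74 and 1.72 CPM (log2 0.43, adjusted p = 0.519), and Tnfsf13b (BAFF) read 1.53 and 1.34 CPM, then 0.870 and 0.957 CPM (log2 -0.65, adjusted p = 0.324). Myeloid and dendritic cell markers summed to 36.7 and 39.0 CPM in wild type, then 30.5 and 33.3 CPM in the knockout-labelled libraries. Of 7 tested, 4 had values above 0 (median log2 0.25), Cd68 was higher in both knockout-labelled libraries (adjusted p = 0.38) and Flt3 fell (7.42 and 4.16 CPM, then 2.01 and 1.79 CPM, adjusted p = 0.0449), while Xcr1 and Siglech were at 0. Their part in these values was not tested.

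The rest of the family did not pass. Tnfsf8 (CD30 ligand) had the third-highest level per length among ligands and read 235 and 236 CPM in wild type, then 262 and 242 CPM in the other group (log2 0.10, adjusted p = 0.597). Fasl read 27.5, 27.5, 27.7 and 22.7 CPM (log2 -0.13, adjusted p = 0.631), Tnfsf10 (TRAIL) 39.2, 47.9, 27.8 and 37.4 CPM (log2 -0.42, adjusted p = 0.186), and Tnfsf9, which overlaps the predicted gene Gm11110 on the opposite strand (455 and 610 counts in total), 6.13, 5.77, 7.16 and 10.3 CPM (log2 0.56, adjusted p = 0.186), in the library order 13, 15, 22 and 24. The log2 fold change of Tnfsf10 was -0.20 without 22 and -0.65 without 24. Eda2r, a receptor of ectodysplasin A2, was at 0.537 to 3.01 CPM (log2 1.34, adjusted p = 0.156), with its groups not overlapping. The 8 members not tested were Tnfrsf11b, Tnfrsf17, Tnfrsf19, Tnfsf12, Tnfsf13, Tnfsf13os, Tnfsf15 and Tnfsf18, with counts from 0 to 29 in a library. Tnfsf15 had 9, 5, 29 and 7 counts, the highest of them.

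Setting ligands beside their receptors, 23 pairs were listed and 17 had both members tested. In 0 pairs did both pass, and in 5 pairs of the 17 one did. Tnfsf4 rose while Tnfrsf4 had a log2 fold change of -0.38. Cd40lg rose beside a value of -1.36 for Cd40, and Tnfsf11 beside -1.39 for Tnfrsf11a. Tnfrsf9 rose beside a value of 0.56 for its ligand Tnfsf9, and Tnfrsf13c beside -0.65 for Tnfsf13b. None of these 5 partners passed the test, and 4 of them had values below 0.

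Members within 500 kb of each other formed 9 loci that hold 24 of the 43 genes. The Tnf, Lta and Ltb locus had values below 0 in all 3 genes, and that of Tnfsf9, Cd70 and Tnfsf14 (88.805 kb, also on chromosome 17) had values above 0 in all 3, of which none passed. Tnfrsf1b and Tnfrsf8, 101.702 kb on chromosome 4, were both above 0. Tnfsf4 rose where Fasl, in the same 393.087 kb, had a value of -0.13. Tnfrsf26 rose where Tnfrsf22 and Tnfrsf23, also above 0, did not pass. Tnfrsf4 and Tnfrsf18 were both below 0 (-0.38 and -0.03). The locus of Cd27 (-0.14), Ltbr (1.36) and Tnfrsf1a (0.48) was mixed, and none passed. The Tnfsf12, Tnfsf13 and Tnfsf13os locus held no tested gene, and that of Tnfsf8 and Tnfsf15 only Tnfsf8.

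Of 50 genes for adaptors, enzymes and NF-kappaB proteins that act below these receptors, all were tested and 5 rose (10%, with 5.53% of all genes called higher). None fell in edgeR's test or with DESeq2, where 4.59% and 6.87% of all genes were called lower. At an unadjusted p under 0.05, 14 were higher and 3 lower (28% and 6%). Of all genes, 16.2% and 15.5% lay under it. The groups did not overlap in 27 of the 50 (54%), where 63.8% of all genes did not. The median log2 fold change was 0.10. Nfkbib, an inhibitor of NF-kappaB, read 26.8 and 30.6 CPM in wild type, then 81.6 and 57.0 CPM in the knockout-labelled libraries (log2 1.27, SE 0.20, adjusted p = 0.0203). Birc2 (cIAP1), a ubiquitin ligase of TNF receptor complexes, read 180 and 171 CPM, then 446 and 307 CPM (log2 1.10, SE 0.19, adjusted p = 0.0235). Traf1, an adaptor that binds Birc2 and TRAF2, read 220 and 207 CPM, then 364 and 311 CPM (log2 0.66, SE 0.13, adjusted p = 0.0307). Tnfaip3 (A20), a ubiquitin-editing inhibitor of NF-kappaB, read 226 and 185 CPM, then 520 and 334 CPM (log2 1.05, SE 0.22, adjusted p = 0.0368). Xiap, an inhibitor of caspases, read 39.6 and 70.0 CPM, then 184 and 116 CPM (log2 1.45, SE 0.32, adjusted p = 0.0397) and was named after its values were seen. For all 5, both knockout-labelled libraries lay above both wild-type ones. Leaving out wild type 13 ended every one of these calls, with adjusted p from 0.0786 to 0.164, and leaving out 15 ended 4 (0.0674 to 0.267), Xiap passing at 0.0347. Without 22, Xiap had 0.0798. On both FPKM scales Tnfaip3 and Xiap missed the threshold, with adjusted p up to 0.0613 and 0.0638. Nfkbia, another inhibitor of NF-kappaB, differed by 0.57 on the log2 scale (adjusted p = 0.0544) and Tnip1, which binds Tnfaip3, by 0.74 (adjusted p = 0.06). Fadd, the death-domain adaptor, stood at -0.80 (adjusted p = 0.0877) and Mlkl, the executor of necroptosis, -0.62 (adjusted p = 0.0912).

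**Figure D5:**
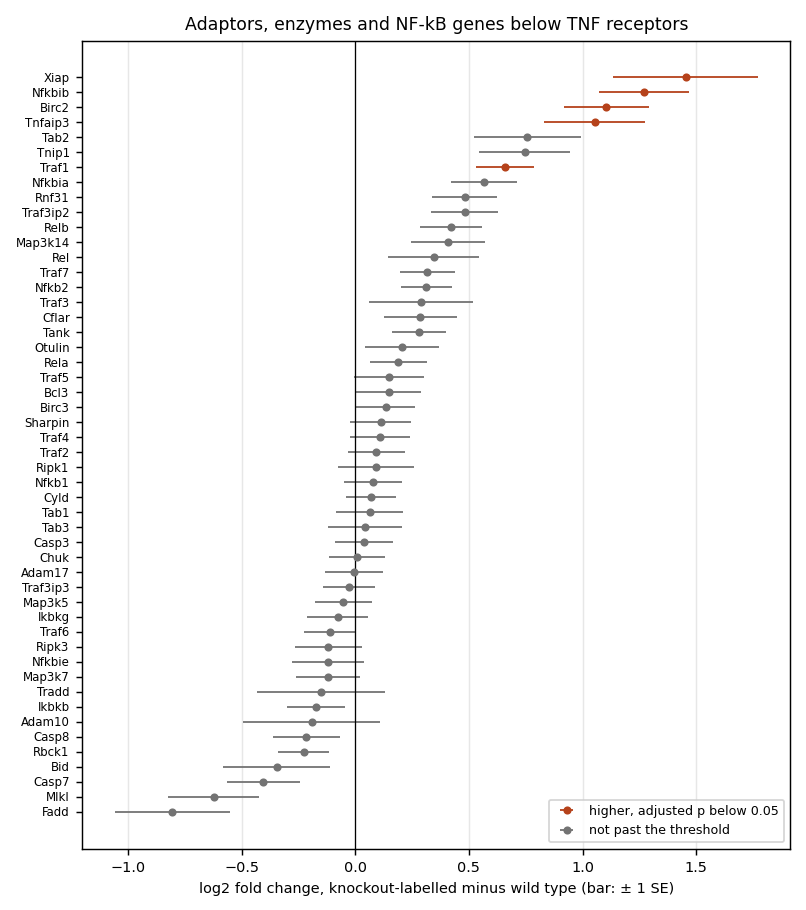
Log2 fold change (knockout-labelled minus wild type) of 50 genes that act below TNF receptors, with bars of ± 1 standard error from edgeR. Red points are the 5 past the threshold, all to the right of 0.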

How the data were processed

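Per the labels, the RNA of the 4 libraries was prepared with TRIzol for Illumina HiSeq sequencing. Bowtie2, RSEM and the mouse build GRCm38.p6 (mm10) appear in the submitters' processing notes, and versions, annotation release and use of strand are not stated in what was used here. The authors deposited whole-number counts per gene beside FPKM in 1 table. Deposited FPKM gave only a second order of levels between genes. It was not the main scale, because the length it implies exceeded 1.5 times the longest GENCODE M21 transcript in 13 of 35 members. CPM per kb of that transcript was used instead, which differs from the plan. For Tnfsf13b the implied length was only 0.195 times that transcript, so its low level per kb is uncertain.

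Counts were tested over 13279 genes with edgeR 4.0.16 (R 4.3.3): filterByExpr (minimum count 10, minimum total 15), scaling by trimmed mean of M values, glmQLFit and glmQLFTest, two-sided, with Benjamini-Hochberg adjustment over all genes and a threshold of 0.05. All adjusted p-values are from this test unless another tool is named. A test that permutes the labels of 2 against 2 libraries cannot reach 0.05, so inference rests on a spread shared across genes. The standard error is the size of the log2 fold change over the square root of F. Replicates differed by more than counting noise. The members were taken by symbol alone, and the family, the marker lists and the signalling genes were chosen with earlier results of these data known. Members that passed, their partners and the most abundant receptors and ligands were named. Alternatives were other scalings and filters, DESeq2 1.42.0, limma-voom (limma 3.58.1), limma on log2(FPKM + 1) and log2(FPKM + 0.1), and leaving out each library. The tests were tested on simulated data. That simulation gave every library the same spread, so it does not mirror the wider gap between the knockout-labelled libraries. Figures were drawn with matplotlib 3.10.9.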

Additional observations from a re-analysis of the deposited data

How the results depend on the processing

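In the 9 settings that kept all 4 libraries, 6 of the 7 genes passed the threshold throughout, and Tnfrsf26 missed it with library totals, upper-quartile scaling and both FPKM scales (adjusted p up to 0.0627). Members called higher ranged from 0 to 11 when each library was left out in turn, and members called lower from 0 to 6, while calls over all genes ranged from 0.685% to 16% higher and from 0.346% to 14.9% lower. The count of lower members was 4 with no filter on low counts, 2 with DESeq2 and 1 with limma-voom, where 5.77%, 6.87% and 4.65% of all genes were called lower. Signalling genes called higher ranged from 0 to 17 without 1 library, and were 8 with no filter, 9 with DESeq2 and 3 on both FPKM scales, where 6.69%, 8.27%, and 3.35% and 3.44% of all genes were called higher. Signalling genes called lower ranged from 0 to 3 without 1 library, and were 1 with no filter. Without a wild-type library the spread comes from the knockout-labelled pair alone. Without a knockout-labelled library it comes from the wild-type pair alone, whose libraries lay closer together. For single genes, 495 values kept their direction and side of the threshold, 27 passed it only in the alternative, 32 only in the main test and 4 changed sign. These were, over the fits that left out 1 library, Fasl (log2 from -0.26 to 0.00989), Tnfrsf18 (from -0.22 to 0.14, with 0.12 lacking wild type 13) and Tnfrsf21 (from -0.0825 to 0.30), where the cause was not tested. No paired analysis was possible because the libraries of the groups share no replicate number. Low counts limit Ltbr, Eda2r, Cd70, Tnfsf13b, Cd40 (15 to 55 counts a library), Tnfrsf11a (14 to 64) and Tnfrsf21 (31 to 39), and the 8 untested members.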
